A study of Mus musculus with 16 samples.

Results

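Atp5o, Ndufb8, Ndufv1 and Sdha are 4 nuclear genes that encode subunits of the mitochondrial respiratory chain and ATP synthase. They were taken by gene symbol from a deposited table of 2438 genes in mouse duodenal epithelium, and all 4 symbols were found once. The table held only genes that the authors had called different between these same libraries, so the presence of the 4 genes in it is not a finding. The study compared mice with loxP-flanked ("fl/fl", called flox below) Ephb4 alleles and mice in which Ephb4 was deleted in the intestinal epithelium ("Ephb4-IKO", called KO below). There were 9 flox mice (replicates 1 to 7, 9 and 10) and 7 KO mice (replicates 1 to 5, 7 and 8), with 1 RNA sequencing library per mouse. All mice in both groups were 8 weeks old at the start and then ate a high fat diet for 19 weeks, so no library came from another diet. The sources used here do not name the recombinase that removed Ephb4. The sample is called duodenal epithelium in the labels and proximal small intestine in the design text.

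The respiratory chain passes electrons from NADH and succinate to oxygen through complexes I to IV in the inner mitochondrial membrane and pumps protons as it does so. ATP synthase, also called complex V, lets the protons flow back and makes ATP. Most subunits are encoded in the nucleus and imported, and a few are encoded by mitochondrial DNA. Absorptive cells of the intestine are rich in mitochondria, which power nutrient uptake and oxidise fatty acids and glutamine. Ndufv1 carries the flavin of complex I that accepts electrons from NADH, and Ndufb8 is an accessory subunit of its membrane arm. Sdha is the flavoprotein of complex II that oxidises succinate, which makes it also an enzyme of the tricarboxylic acid cycle. Atp5o, also known as OSCP, joins the catalytic head of ATP synthase to its peripheral stalk.

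The 4 genes lie on 3 chromosomes, all on the minus strand of GRCm38. Atp5o (ENSMUSG00000022956) occupies chr16:91925214-91931687 with 7 exons in its 838-base transcript. Ndufb8 (ENSMUSG00000025204) occupies chr19:44548572-44555440 with 5 exons in 680 bases. Ndufv1 (ENSMUSG00000037916) occupies chr19:4007497-4012806 with 10 exons in 1661 bases. Sdha (ENSMUSG00000021577) occupies chr13:74322254-74350280 with 15 exons in 2900 bases. Transcript lengths are those of the longest principal transcript in the GENCODE annotation. Their promoters are shown because all 4 genes were lower together in KO, and nuclear genes of the chain are known targets of NRF1, ETS family factors, YY1 and estrogen related receptors. Each window runs from 250 bases before to 50 bases after the RefSeq start on GRCm38.p6, 5′ to 3′ on the gene's strand. Atp5o is read from chr16:91931581-91931880, Ndufb8 from chr19:44555393-44555692, Ndufv1 from chr19:4012706-4013005 and Sdha from chr13:74350191-74350490. Capitals mark matches on either strand to the NRF1 core TGCGCA, the ETS core CCGGAAGT, the YY1 core AAGATGGC, the estrogen related receptor site TCAAGGTCA, the GC box GGGCGG, the CCAAT box or the cyclic AMP element TGACGTCA.
Atp5o: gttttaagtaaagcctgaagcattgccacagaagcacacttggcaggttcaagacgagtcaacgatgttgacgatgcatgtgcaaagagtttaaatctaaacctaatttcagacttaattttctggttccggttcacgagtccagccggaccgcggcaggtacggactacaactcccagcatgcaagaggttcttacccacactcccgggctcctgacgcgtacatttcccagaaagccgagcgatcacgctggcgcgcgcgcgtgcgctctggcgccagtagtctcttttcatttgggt
Ndufb8: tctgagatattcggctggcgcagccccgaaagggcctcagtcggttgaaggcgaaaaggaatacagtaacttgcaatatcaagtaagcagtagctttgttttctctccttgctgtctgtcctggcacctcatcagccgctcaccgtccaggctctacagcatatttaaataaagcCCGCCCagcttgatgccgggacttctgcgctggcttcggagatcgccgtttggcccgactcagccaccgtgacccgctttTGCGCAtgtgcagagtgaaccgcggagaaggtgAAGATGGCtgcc
Ndufv1: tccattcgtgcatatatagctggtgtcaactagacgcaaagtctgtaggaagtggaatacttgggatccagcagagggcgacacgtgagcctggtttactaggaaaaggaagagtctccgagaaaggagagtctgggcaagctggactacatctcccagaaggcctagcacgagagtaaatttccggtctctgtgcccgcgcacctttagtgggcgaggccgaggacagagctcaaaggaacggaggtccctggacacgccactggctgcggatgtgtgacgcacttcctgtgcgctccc
Sdha: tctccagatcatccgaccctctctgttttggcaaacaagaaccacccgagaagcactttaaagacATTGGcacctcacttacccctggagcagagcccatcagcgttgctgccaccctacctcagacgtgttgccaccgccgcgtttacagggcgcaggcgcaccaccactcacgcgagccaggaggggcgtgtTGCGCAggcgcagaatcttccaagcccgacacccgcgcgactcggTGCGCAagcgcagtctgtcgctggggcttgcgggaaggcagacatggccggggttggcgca

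The 4 windows did not share a motif among those searched. Ndufb8 held TGCGCA at base 6 after the start, AAGATGGC at base 39 after the start and a GC box on the other strand at -75. Sdha held TGCGCA at -56 and again at -11, and a CCAAT box on the other strand at -185. The Atp5o and Ndufv1 windows held 0 of the 7 motifs, which says only that these letters are not in these windows. TGCGCA was in 7.76% of 32851 promoter windows of the same length, AAGATGGC in 2.75%, GGGCGG in 35.7% and CCAAT in 37.4%. Among 67 nuclear genes of complexes I to V with a window, TGCGCA was in 28.4% and AAGATGGC in 14.9%. These motifs do not overlap one another in the 4 windows. The windows held 22 CpG dinucleotides in Atp5o, 19 in Ndufb8, 16 in Ndufv1 and 25 in Sdha, against a median of 7 and an upper quartile of 20 over all windows, so Atp5o and Sdha lay above that quartile and the other two below it. A letter match is a description of the sequence, and factor binding was not measured.

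The libraries held 4237178 to 5316273 reads in the listed genes in flox and 3592468 to 4555872 in KO. Values below are normalised counts, which are reads divided by 1 size factor per library, so they compare libraries but not genes of different length. The deleted gene Ephb4 was 211 ± 94.4 (SD, n = 9) in flox and 36.6 ± 21.7 (SD, n = 7) in KO. Epithelial transcripts were abundant in every library, and the mean log2 level of the 5 listed of 10 epithelial markers was 14.34 to 14.83 in flox and 13.80 to 14.34 in KO, with no test because all 5 were listed as lower. Of 15 markers of mature enterocytes 6 were listed, all lower in KO, against 7.81% of all genes the authors tested. Of 22 markers of crypts and proliferation 13 were listed, all higher, against 6.97% of all genes. Transcripts of other cells were also present, and 11 of 65 markers of immune, stromal and endothelial cells were listed, or 16.9% against 14.8% of all genes, and all 11 were higher in KO (6.97% of all genes). Transcripts of pancreatic acinar cells summed to 392 to 145242 in flox and to 384 to 1797 in KO, with flox 4, 6, 7, 9 and 10 above 5000.

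All 4 genes were lower in KO, and Atp5o, Ndufb8 and Ndufv1 passed limma while Sdha did not. For comparison, limma called 35.1% of the 2339 listed genes tested as lower. Of the 768 listed genes averaging 1000 or more, as these 4 do, 92.7% were lower in the authors' deposited table. The mean levels in KO were 1.35-fold, 1.40-fold, 1.32-fold and 1.17-fold below flox for Atp5o, Ndufb8, Ndufv1 and Sdha, and Sdha had the opposite sign with quantile normalisation and with a non-epithelial covariate. In each of the 4 genes all 7 KO libraries lay below the flox median, and the groups overlapped. All 7 KO libraries also lay below the flox median in each of the 10 other listed subunits that were lower, so this is not particular to the 4 genes. In bulk samples like these, fewer cells of a type and less RNA per cell cannot be told apart.

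**Figure D1:**
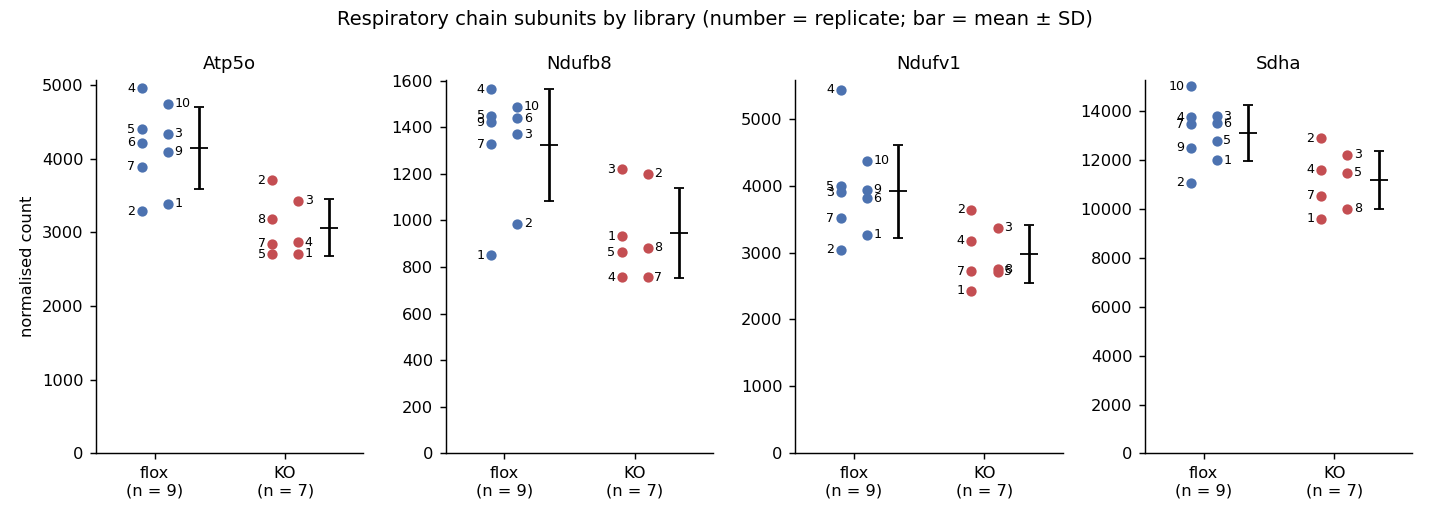
Normalised counts of Atp5o, Ndufb8, Ndufv1 and Sdha in each library (numbers are replicates), with bars at the mean and SD of 9 flox and 7 KO libraries. In every panel the KO libraries lie below the flox median but overlap the flox range, and flox 1 and 2 are the lowest flox libraries. The Sdha difference was below 0 in 31 of 33 other settings, single left-out libraries included. Its sign was opposite with quantile normalisation (0.15) and with a non-epithelial covariate (0.019).

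Atp5o, the stalk subunit of ATP synthase, ranged from 3291 to 4959.7 in flox with a median of 4217. In KO it ranged from 2703 to 3708 with a median of 2866. Of the 7 KO libraries, 5 lay below the lowest flox library, and KO 2 and KO 3 lay inside the flox range. The mean was 4149 ± 559 (SD, n = 9) in flox and 3064 ± 389 (SD, n = 7) in KO. The difference on the scale of log2(normalised count + 1) was -0.43 ± 0.09 (SE), with an adjusted p of 0.0136 in limma. In the authors' deposited table its log2 fold change was -0.44 with an adjusted p of 0.000762. It passed limma with each of the 16 libraries left out in turn, with adjusted p-values of 0.00740 to 0.0358. Its call ended in limma with quantile normalisation (-0.11), the non-epithelial covariate (-0.19), the acinar covariate (adjusted p of 0.0897), the GC trend removed (0.145) and the 5 flox libraries with acinar transcripts left out (0.240).

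Ndufb8, the membrane arm subunit of complex I, ranged from 851 to 1563 in flox with a median of 1421. In KO it ranged from 755 to 1219.9 with a median of 882. Only 2 KO libraries, KO 4 and KO 7, lay below the lowest flox library, which was flox 1. The mean was 1321 ± 240.3 (SD, n = 9) in flox and 944 ± 193 (SD, n = 7) in KO. The limma difference was -0.48 ± 0.13 (SE, log2 scale), and the adjusted p was 0.0361. In the authors' deposited table it was -0.48 with an adjusted p of 0.00881. Leaving out any 1 of flox 3, 4, 5, 6, 9 or 10 or KO 1, 4, 5, 7 or 8 ended the call, with adjusted p-values in limma of up to 0.0847.

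Ndufv1, the NADH-binding flavoprotein of complex I, ranged from 3039 to 5430.1 in flox with a median of 3897. In KO it ranged from 2429 to 3641 with a median of 2749.5. Of the 7 KO libraries, 4 lay below the lowest flox library, and flox 4 stood above all other libraries. The mean was 3916 ± 696 (SD, n = 9) in flox and 2971 ± 432 (SD, n = 7) in KO. The limma difference was -0.39 ± 0.11 (SE, log2 scale), and the adjusted p was 0.0359. In the authors' deposited table it was -0.40 with an adjusted p of 0.0101. Leaving out any 1 of flox 3, 4, 5 or 10 or KO 1, 5, 7 or 8 ended the call, with adjusted p-values in limma of up to 0.0834. With the GC trend over genes removed the difference was -0.047.

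Sdha, the succinate-oxidising subunit of complex II, ranged from 11072 to 15019 in flox with a median of 13467. In KO it ranged from 9599.6 to 12900.3 with a median of 11477. KO 1, KO 7 and KO 8 lay below the lowest flox library, and KO 2 lay nearest to the flox median. The mean was 13099.6 ± 1155 (SD, n = 9) in flox and 11193 ± 1198 (SD, n = 7) in KO. The limma difference was -0.23 ± 0.08 (SE, log2 scale), and the adjusted p was 0.0803, and its sign was opposite with quantile normalisation (0.15) and with a non-epithelial covariate (0.019). In the authors' deposited table it was -0.23 with an adjusted p of 0.0326. In limma it passed without flox 2 (adjusted p of 0.0476) and without KO 2 (adjusted p of 0.0472).

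The order of the libraries was alike in the 4 genes. The 2 lowest flox libraries were flox 1 and flox 2 in all 4 genes, and the 2 highest KO libraries were KO 2 and KO 3 in all 4. Flox 4 was the highest library for Atp5o, Ndufb8 and Ndufv1, and flox 10 was the highest for Sdha. Within groups, after each group's mean was subtracted, the highest Pearson's r was that of Atp5o with Ndufv1, 0.90 with Spearman's rho of 0.89 over 16 libraries, while the highest rho was that of Atp5o with Ndufb8 (0.90). For Atp5o with Ndufv1 the permutation p was 5e-05 for r, the adjusted p over 14 relations was 0.0007, and r was 0.86 without flox 1 and 2. The other 5 pairs had Pearson's r of 0.65 to 0.87 and rho of 0.72 to 0.90, with adjusted permutation p-values for r of at most 0.0182. Leaving out the 2 libraries farthest from the median gave r of 0.52 to 0.83 in these 5 pairs. The points share library, depth and size factor. Over the other listed genes the 95th percentile of r was 0.79 for Atp5o, 0.73 for Ndufb8, 0.77 for Ndufv1 and 0.66 for Sdha. Ndufb8 with Sdha (0.65) and Ndufb8 with Ndufv1 (0.71) lay below those of both genes. Atp5o with Sdha (0.74) lay below that of Atp5o. Atp5o with Ndufb8, Atp5o with Ndufv1 and Ndufv1 with Sdha lay above those of both genes.

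Per length, Atp5o and Sdha stood above Ndufv1 and Ndufb8. Normalised counts per kilobase of transcript in flox were 4951 ± 667 for Atp5o, 4517 ± 398 for Sdha, 2358 ± 419 for Ndufv1 and 1943 ± 353 for Ndufb8 (SD, n = 9). With the gene length of the deposited table the order was Sdha at 3175, Atp5o at 2104, Ndufv1 at 1553 and Ndufb8 at 420.0, so the order of Atp5o and Sdha depended on the length used. The flox ranges of Atp5o (3928 to 5918) and Sdha (3818 to 5179) overlapped per kilobase of transcript, as did those of Ndufv1 and Ndufb8.

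In the authors' calls, 7.81% of 16488 genes were lower in KO, 6.97% were higher and 14.8% changed in either direction. Among the 2339 listed genes averaging 10 or more, limma called 35.1% lower and 19.2% higher, and it called 3 of the 4 genes lower. edgeR on recovered reads called the same number, 3 of 4, with 35.1% of genes lower. DESeq2 on recovered reads called 4 of 4, with 53.0% of genes lower, and 3 of 4 without KO 1 and KO 3. The share of genes called without KO 1 and KO 3 was not counted. Low p-values among listed genes were built in by the selection of the table, and abundant genes in it were mostly lower in KO. Of the 768 listed genes averaging 1000 or more, the authors' deposited table had 712 lower and 56 higher, with a median log2 fold change of -0.35. The median over the 4 genes was -0.42.

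Settings that moved many listed genes also moved the 4 genes. With TMM scaling on the listed genes, 8.07% of genes were called lower in limma and 1 of the 4, Atp5o, passed. That scaling moved the median over all genes by 0.14 on the log2 scale. With the GC trend removed, 9.75% were called lower and 1 of the 4, Sdha, passed at -0.44. With flox 1 and 2 left out, 33.1% were called lower and all 4 passed, Sdha with an adjusted p of 0.0444. With KO 7 left out, 15.6% were called lower and 1 of the 4, Atp5o, passed. The count of 4 genes also dropped to 1 without flox 3, 4, 5 or 10 and without KO 1, 5 or 8. The share of all listed genes called was not counted for these, so the drop cannot be set against it.

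**Figure D2:**
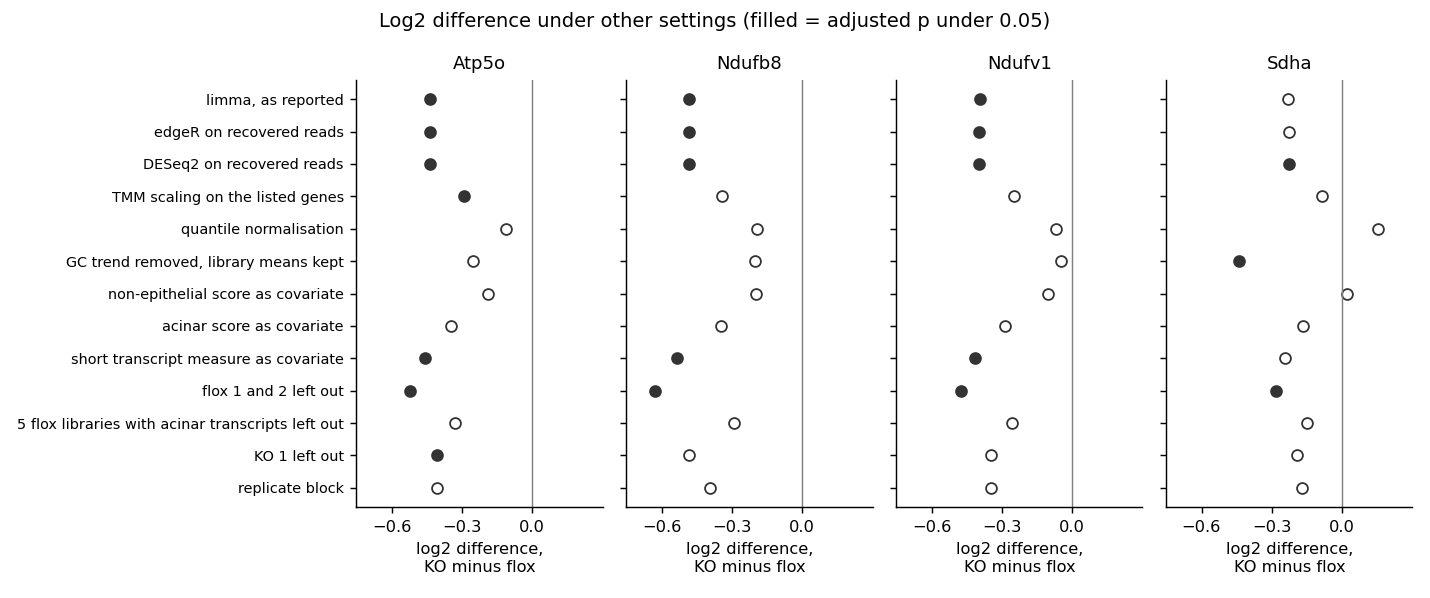
Log2 difference of KO minus flox for each of the 4 genes (x axis) under the reported limma fit and other settings (y axis), with filled points where the adjusted p was under 0.05. Atp5o, Ndufb8 and Ndufv1 lie below 0 in each setting drawn, and Sdha lies above 0 with quantile normalisation (0.15) and with the non-epithelial covariate (0.019).

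The listed markers of non-epithelial cells were summarised as a score for each library. The score is the mean log2 level of the 11 listed markers, and it ran from 4.39 to 5.68 in flox and from 4.98 to 7.02 in KO. Since the 11 markers are in the table because they were called different between these libraries, the difference between groups is a description and has no test. Of the 7 KO libraries, 5 lay above the highest flox library. Summed over the 11 markers, the normalised count was 379.5 to 910.7 in flox and 518.8 to 2300 in KO. The stromal marker Lum was at 0 in 5 flox libraries and 1 KO library, and no marker of the 11 was at 0 in all libraries. The KO libraries with the lowest scores, KO 2 and KO 3, were those with the highest levels of the 4 genes. The score's part in the difference was not tested, since the covariate fit that follows cannot separate the score from the group.

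Within groups, Sdha had the closest relation to this score, with Pearson's r of -0.82 and Spearman's rho of -0.79 over 16 libraries. The permutation p for r was 0.00022, the adjusted p was 0.00103, and the permutation p for rho was 0.001. Without KO 1 and KO 2, the 2 libraries farthest from the median score, r was -0.72. Atp5o had r of -0.60 and rho of -0.53 (permutation p of 0.0146 and 0.0423, adjusted 0.0225 and 0.0576), and Ndufv1 had r of -0.59 and rho of -0.56 (permutation p of 0.0161 and 0.0331, adjusted 0.0225 and 0.0515). Ndufb8 had r of -0.46 and rho of -0.50 (permutation p of 0.0797 and 0.0642, adjusted 0.0930 and 0.0749). Without KO 1 and KO 2 these were -0.46 for Atp5o, -0.40 for Ndufv1 and -0.45 for Ndufb8.

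With the score as a covariate, limma called 0 of the 4 genes, 0 at an unadjusted p under 0.05, and 0.171% of the listed genes tested as lower. The score's markers were all listed as higher in KO, so the score follows the groups and this fit cannot separate the 2. The log2 differences in that fit were -0.19 for Atp5o, -0.20 for Ndufb8, -0.10 for Ndufv1 and 0.019 for Sdha. With the pancreatic acinar score as a covariate, limma called 0 of the 4 and 7.40% of genes as lower, and 3 of the 4 had an unadjusted p under 0.05. With the 5 flox libraries that held acinar transcripts left out, it called 0 of the 4 and 0.257% of genes, and 1 of the 4 had an unadjusted p under 0.05. The log2 differences there were -0.33 for Atp5o, -0.29 for Ndufb8, -0.26 for Ndufv1 and -0.15 for Sdha, whose sign was opposite in the settings named above. That fit kept only flox 1, 2, 3 and 5 of the flox libraries, so fewer samples entered. Flox 1 and 2 were the lowest flox libraries for all 4 genes, and the part of acinar content was not tested.

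**Figure D3:**
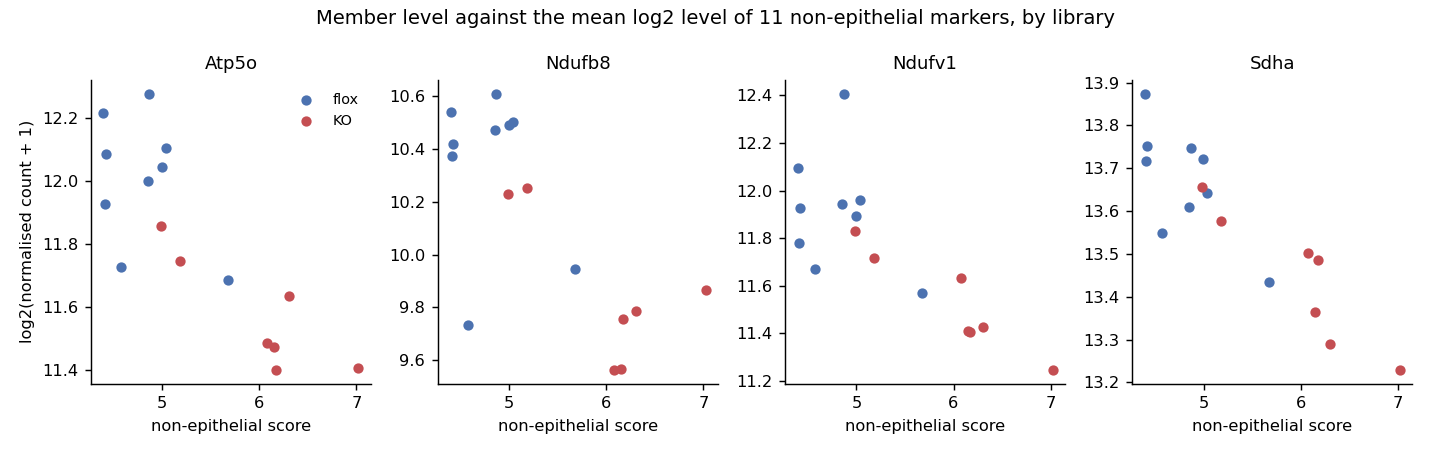
Level of each gene as log2(normalised count + 1) (y axis) against the mean log2 level of 11 non-epithelial markers (x axis), 1 point per library, flox and KO coloured. KO libraries reach scores up to 7.02 and flox libraries 5.68, and within groups the relation is closest for Sdha (r of -0.82) and weakest for Ndufb8 (r of -0.46, not past the threshold). For Sdha the direction of the difference between groups was opposite with this score as a covariate and with quantile normalisation.

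Atp5o was lower relative to Sdha in KO, and this was the only one of 6 pairs of the 4 genes that passed the test. The ratio of normalised counts Atp5o to Sdha was 0.316 ± 0.0253 (SD, n = 9) in flox and 0.274 ± 0.0272 (SD, n = 7) in KO. The log2 ratio differed by -0.21 ± 0.07 (SE), with a two-sided exact permutation p of 0.00577, an adjusted p over 6 pairs of 0.0346, and 6 of 7 KO libraries below the flox median. The smallest p this design allows is 8.74e-05. The call ended without flox 3, 4, 5, 6, 9 or 10 or KO 3, 4, 5 or 7, with adjusted p-values up to 0.0983, and it also ended without the 5 flox libraries with acinar transcripts (0.318).

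Ndufb8 and Ndufv1 relative to Sdha did not pass. Their log2 ratios differed by -0.25 ± 0.12 and -0.16 ± 0.07 (SE), with adjusted exact permutation p-values of 0.0907 and 0.0834. With flox 1 left out both passed, at adjusted exact permutation p-values of 0.0149 and 0.0376, and without flox 7 the second passed at 0.0382. The remaining 3 pairs had differences of 0.05 ± 0.08 (Atp5o to Ndufb8), -0.04 ± 0.05 (Atp5o to Ndufv1) and -0.09 ± 0.11 (Ndufb8 to Ndufv1), with adjusted p-values of 0.511 to 0.546 in the exact permutation test. Relative to Vil1, an actin-binding protein of the enterocyte brush border that was itself 1.26-fold lower in KO, the log2 ratio differed by -0.10 ± 0.09 for Atp5o, -0.15 ± 0.16 for Ndufb8, -0.06 ± 0.09 for Ndufv1 and 0.11 ± 0.06 for Sdha (SE). None of these 4 passed, with exact permutation p-values of 0.0976 to 0.594 before adjustment and 0.391 to 0.594 after it. Vil1 and the 4 genes were all listed because they were called lower in these same libraries. These ratios therefore cannot show whether the 4 genes follow the share of epithelium.

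Of 80 nuclear genes of complexes I to V looked up by symbol, 15 were listed, 14 lower and 1 higher. The share lower was 17.5%, against 7.81% of all genes the authors tested, and without the 4 genes 10 of 76 were lower, or 13.2%. Complex I had 8 of 36 lower and 1 higher, complex II 1 of 4, complex III 1 of 9 and ATP synthase 4 of 18. None of the 13 genes of complex IV and cytochrome c was listed, and none of the 13 mitochondrially encoded subunits. limma called 7 of these 15 lower and 1 higher, where it called 35.1% and 19.2% of all listed genes tested. The median log2 fold change of the 15 in the authors' deposited table was -0.48, against -0.23 over all listed genes. Among listed genes averaging 500 or more, as these 15 do, the median was -0.34 and 88.3% were lower.

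The other small subunits of complex I were lower by more than the 4 genes in several cases. Ndufa2 had means of 1617 ± 659 (SD, n = 9) and 884 ± 246 (SD, n = 7), a 1.83-fold difference that did not pass limma (adjusted p of 0.0775). Ndufb6 fell 1.47-fold, from 763 ± 156 to 518 ± 104 (SD, n = 9 and 7), with an adjusted p of 0.0221 in limma. Ndufa3 fell 1.47-fold with an adjusted p of 0.0462 in limma. Ndufs6, Ndufa1 and Ndufb3 were 1.49-fold, 1.44-fold and 1.35-fold lower and did not pass limma.

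In ATP synthase, Atp5g3, one of the genes for the membrane ring subunit c, fell 1.45-fold from 14776 ± 2597 to 10184 ± 3002 (SD, n = 9 and 7), with an adjusted p of 0.0351 in limma. Atp5d, the delta subunit of the catalytic head's central stalk, fell 1.34-fold with an adjusted p of 0.0344 in limma. Atp5a1, the alpha subunit of the head, was 1.16-fold lower and did not pass (0.125 in limma). The complex III subunit Uqcr11 was 1.72-fold lower and did not pass (0.118 in limma). Leaving out single libraries also moved these calls, and the count of 7 ran from 1 without KO 7 to 12 without flox 2. It was 9 without KO 2, 10 without flox 1, 2 without KO 1, KO 5, flox 3, flox 4 or flox 10, 3 without KO 4, KO 8 or flox 5, and 4 without flox 6 or flox 9.

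Ndufab1, the acyl carrier protein of mitochondria and a subunit of complex I, rose 1.26-fold from 1453 ± 112 to 1833 ± 282 (SD, n = 9 and 7). Its adjusted p in limma was 0.0290, and its difference had the opposite sign (-0.055) with the GC trend removed. The annotated pseudogene Ndufab1-ps was also listed higher, 1.44-fold, and how reads were split between the 2 is not stated, so the value for Ndufab1 is uncertain. The call ended without flox 3, flox 10, KO 3 or KO 5, with adjusted p-values up to 0.0673 in limma. It also ended in limma with the non-epithelial covariate (adjusted p of 0.535) and the acinar covariate (0.158). The same held with the 5 acinar flox libraries left out (0.338) and with a block on replicate number (0.161), and the difference stayed above 0 in these settings.

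**Figure D4:**
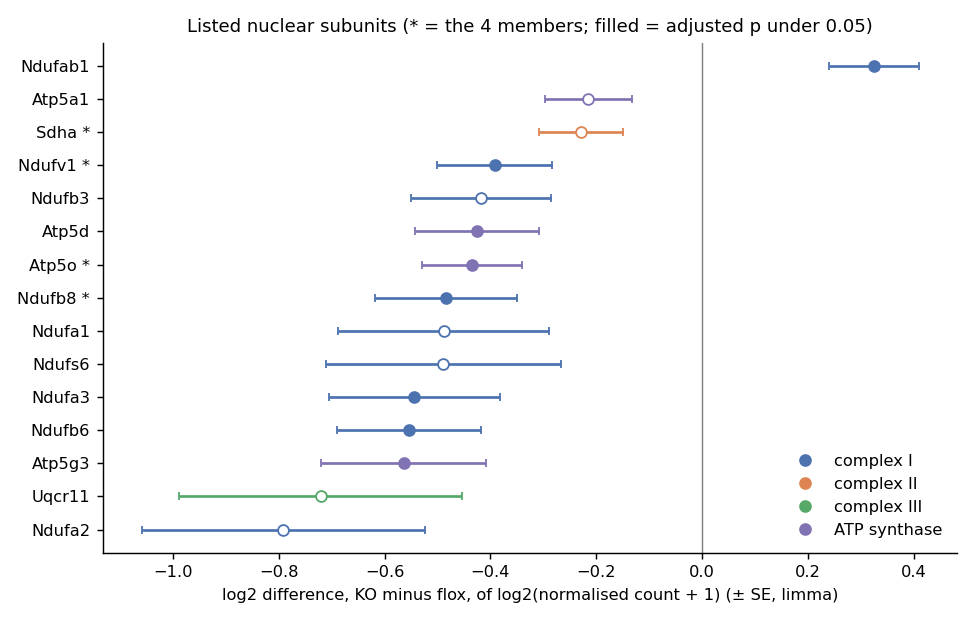
Log2 difference of KO minus flox with SE (x axis, limma) for the 15 listed nuclear subunits (y axis), coloured by complex, with filled points for an adjusted p under 0.05. Of the 15, 14 lie below 0 and Ndufab1 lies above 0, and 7 of the lower genes are filled. Sdha (opposite sign with quantile normalisation and the non-epithelial covariate) and Ndufab1 (opposite sign with the GC trend removed) are drawn for the reported fit only.

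Some of the order of libraries seen in the 4 genes was present in the other 10 lower subunits. Flox 1 and 2 were the 2 lowest flox libraries in all 10. KO 2 was the highest KO library in all 10, as in 3 of the 4 genes. KO 2 and KO 3 were the 2 highest KO libraries in 6 of the 10, and flox 4 was the highest flox library in 4 of the 10. Ndufs6 was 520.0 in flox 1 and 566 in flox 2, against 1038 to 1815 in the other 7 flox libraries. Uqcr11 was 773 and 863, against 1715 to 2781. Atp5a1, with a longer transcript of 2471 bases, was 33394 and 30776, against 35108 to 40248. In flox 1 and 2 the short subunit transcripts stood farther below the other flox libraries than the long ones did.

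A measure of short transcripts was computed for each library from listed genes outside the respiratory chain with a mean of 50 or more. Each gene's log2 level was taken relative to its mean over the 16 libraries, and the median over 1391 genes with transcripts over 2000 bases was subtracted from the median over 80 genes of at most 800 bases. It was -0.35 in flox 1, -0.16 in flox 2 and -0.18 in KO 8, and over all 80 short genes the KO mean was 0.04 above flox. By abundance, the KO mean was -0.11 and the flox mean 0.11 for the 30 short genes with means of 50 to 200, and -0.14 and 0.10 for the 26 from 200 to 1000. For the 24 short genes above 1000, where the 4 genes lie, the KO mean was 0.0060 and the flox mean -0.015. These group differences were not tested. Within groups Ndufb8, which has the shortest transcript of the 4 genes, had Pearson's r of 0.76 and Spearman's rho of 0.76 with it (permutation p of 0.00127 and 0.00144, adjusted 0.00356 and 0.00288). Without flox 1 and flox 9 this r was 0.68. Atp5o, Ndufv1 and Sdha had r of 0.51, 0.40 and 0.41 with adjusted permutation p-values of 0.0685, 0.143 and 0.128, and rho of 0.53, 0.46 and 0.41 with adjusted permutation p-values of 0.0576, 0.0964 and 0.126. With the measure as a covariate limma called the same 3 of 4 genes and 12 of the 15 subunits as lower. The share of all listed genes called in that fit was not counted.

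**Figure D5:**
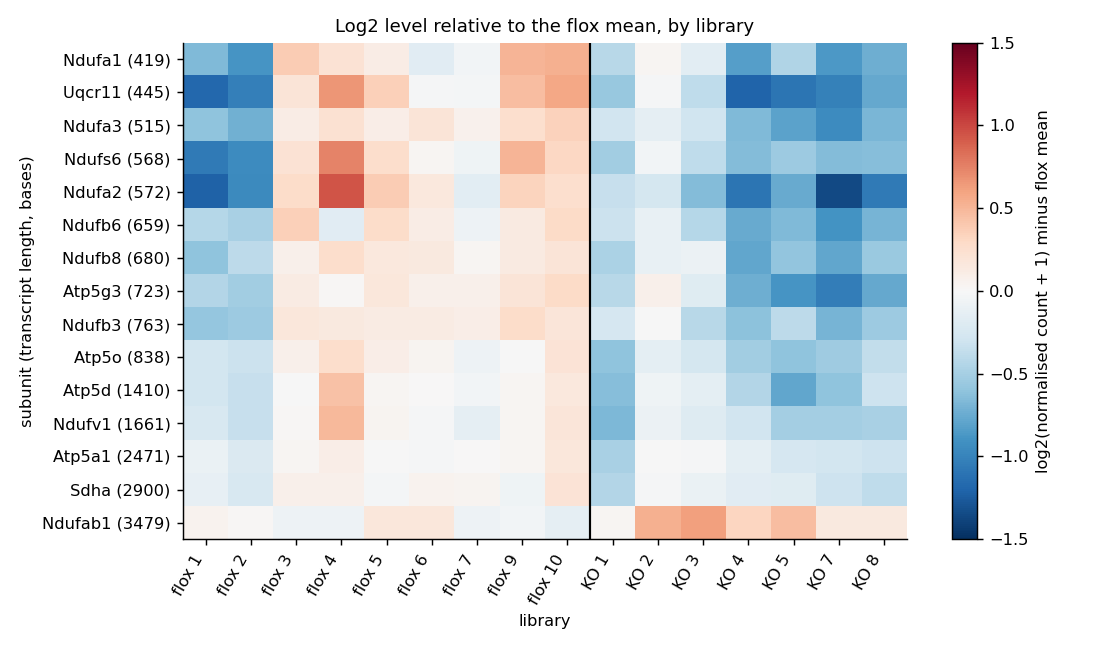
Level of each listed subunit as log2(normalised count + 1) minus its flox mean (colour) in each of 16 libraries (columns, flox left of the line), with rows labelled by transcript length in bases. Flox 1 and flox 2 are below the flox mean in the 14 lower subunits and KO 2 and KO 3 are the KO libraries nearest to flox in 10 of them.

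Other mitochondrial gene lists had listed members in both directions, and their shares can be read against 14.8% of all genes listed. In the tricarboxylic acid cycle and the steps that feed it, Pcx (pyruvate carboxylase) was 1.34-fold lower and Pdhb (a subunit of pyruvate dehydrogenase) 1.17-fold higher in KO, and neither passed limma (adjusted p of 0.0857 and 0.0803). Of 44 assembly factors of the chain 4 were listed (9.09%), of which Cox11, Ndufaf8 and Timmdc1 were lower and Ndufaf4 higher, and 0 of the 4 passed limma, with 4 of 4 at an unadjusted p under 0.05. Of 30 genes of protein import 2 were listed (6.67%), of which Timm13 was lower at 1.63-fold and did not pass, while Timm21 rose 1.34-fold, and limma gave it an adjusted p of 0.0274.

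Of 21 regulators of mitochondrial gene expression 3 were listed (14.3%, against 14.8% of all genes), 1 lower and 2 higher. Esrra, the estrogen related receptor alpha, fell 1.57-fold from 7446 ± 1622 to 4747 ± 1046 (SD, n = 9 and 7), with an adjusted p of 0.0183 in limma. Tfb2m, a mitochondrial transcription factor, rose 1.30-fold with an adjusted p of 0.0277 in limma. Gabpb1, a subunit of the ETS factor GABP (also NRF2), was 263 ± 31.2 in flox and 315 ± 18.5 in KO (SD, n = 9 and 7) and did not pass limma (adjusted p of 0.0561). Of 28 genes of carriers, electron transfer and membrane shape 6 were listed (21.4%), 5 lower and 1 higher. Etfa, which passes electrons from fatty acid oxidation to the chain, fell 1.31-fold with an adjusted p of 0.0102 in limma. The carriers Slc25a1 (citrate) and Slc25a10 (dicarboxylates) fell 1.29-fold and 1.27-fold with adjusted p-values of 0.0306 and 0.0422 in limma. Etfb and Slc25a11 were lower and Slc25a4, an ADP/ATP carrier, was higher, and these 3 did not pass.

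The genes whose levels were most like each of the 4 within groups were found by Pearson's r over 16 libraries, after each group's mean was subtracted. For Atp5o they were Aes (0.97), Esrra (0.96) and Atp5d (0.94). For Ndufb8 they were Gm11273, Fkbp2 and 2410015M20Rik (0.94 each). For Ndufv1 they were Aldh16a1 (0.94), Gip (0.93) and Khk (0.93), the last encoding ketohexokinase, the first enzyme of fructose use. For Sdha they were Atp5a1 (0.93), Neurl3 (0.88) and Cyth2 (0.86). The median r over the other listed genes was 0.04 to 0.09 for the 4 genes, and the 95th percentile was 0.66 to 0.79.

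The spans of 3 of the 4 genes overlap those of neighbouring genes. The bases given here count whole spans, introns included, and whether the overlaps added or removed reads is not known. Atp5o overlaps the antisense gene Gm15976 over 3422 bases, the antisense gene D430001F17Rik over 451 bases and a second gene model named Atp5o (ENSMUSG00000116933) on the same strand over 1769 bases. Ndufb8 overlaps the protein-coding model Gm20538 on its own strand over 4260 bases, and Sdha overlaps a processed pseudogene, Gm16125, over 339 bases. None of these was listed. The sources used here do not say whether the counting used strand. Ndufv1 has no such overlap in the GENCODE annotation, from which its deposited coordinates differ.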

How the data were processed

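RNA from 16 samples, 1 per mouse, was extracted with TRIzol, selected on poly-T beads and made into libraries (NEBNext Ultra RNA kit), per the labels' protocols. Per the submitters' processing notes, the genome was GRCm38 (mm10) and the tools were HISAT2 2.0.5 plus featureCounts 1.5.0-p3 as well as DESeq2 1.20.0, at settings that the sources used here do not give. The deposited signal of each library is a read count divided by 1 size factor, since 100% of the values above 0 came out as whole reads at a tolerance of 0.0001. The authors' log2 fold changes (KO over flox), p-values and adjusted p-values were deposited beside them. The largest adjusted p was 0.0497, and the authors' adjustment ran over 16488 genes. Genes outside the table were not analysed here.

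The 4 genes and the gene lists were chosen with earlier results of these data known. Genes named in the text are the 4 genes, every other listed gene of complexes I to V, up to 6 listed genes of each other mitochondrial list (1 gene that this rule names is not reported here), the 3 genes most like each of the 4, and the markers that a result turns on. The gene Ndufab1-ps and the mitochondrial tRNA genes were chosen after their values were seen. The test was limma 3.58.1 (trend and robust) in R 4.3.3 on log2(value + 1), over the 2339 listed genes averaging 10 or more. Benjamini-Hochberg adjustment ran over 16488 genes, with unlisted genes set to 1, and the threshold was 0.05. edgeR 4.0.16 and DESeq2 1.42.0 on recovered reads were alternatives. Recovery was less certain for KO 1, which has few low values, and for KO 3, where 1 read is worth about 1, so both were also left out. Ratios used exact permutation over all 11440 splits, and correlations used 100000 permutations within groups with 14 relations adjusted together. All tests were two-sided. The scripts were tested on simulated data. Other alternatives were TMM, quantile normalisation, pseudocounts, filters, covariates and left-out libraries, of which leaving out flox 1 and 2 or the 5 acinar flox libraries, the short transcript covariate and the GC correction were chosen after seeing the data.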

Additional observations from a re-analysis of the deposited data

Results flagged for a closer look

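Of 54 groups of values tested for a sample far from the others, 5 had one, and chance alone gives about 1 in 20. Ndufs6 was 1054 in KO 2, and the next highest KO library was 837. The non-epithelial score was 5.68 in flox 2, and the next highest flox library was 5.04. The log2 ratio of Atp5o to Ndufb8 was 1.99 in flox 1, and the nearest flox library was 1.74. In flox 4 the log2 ratio of Atp5o to Ndufv1 was -0.13, the lowest of the flox libraries and away from the nearest at 0.06. In flox 4 the log2 ratio of Ndufv1 to Sdha was -1.34, the highest of the flox libraries and away from the nearest at -1.67.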

How the results depend on the processing

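Pseudocounts of 0.1 and 5 and the unfiltered table left the calls of the 4 genes as reported. For Atp5o, Ndufb8 and Ndufv1 the log2 differences, no longer past the threshold unless stated, were -0.29 (passing), -0.34 and -0.25 with TMM, -0.11, -0.19 and -0.068 with quantile normalisation, -0.19, -0.20 and -0.10 with the non-epithelial covariate, -0.35, -0.35 and -0.29 with the acinar covariate, -0.33, -0.29 and -0.26 without the 5 acinar flox libraries, and -0.25, -0.20 and -0.047 with the GC trend removed. In edgeR without KO 1 and 3, Ndufb8 was -0.57 and Ndufv1 -0.38. In DESeq2 without KO 1 and 3, Sdha was -0.21 and did not pass (adjusted p of 0.0973), and 3 of the 4 genes and 9 subunits passed. Sdha was 0.15 with quantile normalisation, 0.019 with the non-epithelial covariate, and passed at -0.23 in DESeq2, -0.28 without flox 1 and 2, and -0.44 with the GC trend removed. Ndufab1 was -0.055 with the GC trend removed. The cause was not tested. The count of 3 of the 4 genes was 1 with TMM, GC removal and edgeR without KO 1 and 3, and 0 with quantile normalisation, either covariate or the 5 libraries left out. The count of 7 subunits was 1 with TMM, 0 with quantile normalisation, either covariate or the 5 libraries left out, 3 with GC removal, 2 in edgeR without KO 1 and 3, 13 in DESeq2, 13 without flox 1 and 2, and 12 with the short transcript covariate. The count of 1 pair was 3 without flox 1 and 2 and 0 without the 5 libraries. Leaving out each library in turn gave 1 to 4 of the 4 genes, 1 to 12 subunits and 0 to 3 pairs, with Ndufv1 from -0.44 to -0.33, Ndufb8 from -0.56 to -0.43 and Sdha from -0.26 to -0.19. Shares over all listed genes were counted only for the settings where a share is printed, so the other counts have no background.

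With a replicate block on the 6 shared numbers, 0 of the 4 genes, 0 subunits and 0 pairs passed, and Atp5o was -0.41, Ndufb8 -0.39 and Ndufv1 -0.35. The same 12 libraries with no block gave the same differences and also 0 genes and 0 subunits, where fewer samples entered. At an unadjusted p under 0.05 in limma 2 of the 4 passed with the block and 3 without it. Same-numbered libraries had correlations of -0.43 to 0.37, and 1 of 6 correlated best with its own number. A comparison over 6 numbers is too small to exclude a pairing. The smallest p the block allows for a ratio is 0.0312. The table holds selected genes only, so genes that missed the authors' threshold, and the levels of the 65 subunits outside it, were not analysed here.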

Other observations

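None of the 13 subunits encoded by mitochondrial DNA was listed, while 2 transfer RNA genes of the same genome were. The transfer RNA gene mt-Ty was 20.6 ± 7.53 (SD, n = 9) in flox and 8.94 ± 4.52 (SD, n = 7) in KO, with an adjusted p in limma of 0.0442. The gene mt-Tg was 21.4 ± 6.53 (SD, n = 9) in flox and 11.7 ± 4.37 (SD, n = 7) in KO, and it did not pass limma (adjusted p of 0.0768). The genes are 67 and 68 bases long, and all 7 KO libraries lay below the flox median in both. Libraries were made from RNA taken on poly-T beads, which mature transfer RNAs mostly escape.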
